A study of Mus musculus with 12 samples.

Results

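Genes of vascular growth factor signalling, 10 in all, were followed in the mouse lung across adult age. They were the ligands Vegfa and Angpt1, the receptors Kdr, Flt1, Flt4, Tek and Acvrl1, and the co-receptors Nrp1, Tie1 and Eng, chosen by name as rows of the deposited lung table. All 10 were found among its 35275 genes, and all 10 were among the 16042 genes with enough reads to be tested. The libraries came from poly(A) RNA of whole minced lungs of male wild-type C57Bl/6J mice, an inbred strain, at 3, 6, 12 and 24 months of age. Each age had 3 mice, analysed independently, and the labels name no treatment. Every comparison with 3 months shares the same 3 young mice.

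VEGF-A is the main growth factor of blood vessel endothelium, and in the lung it is made largely by the alveolar epithelium and read by the dense capillary network beneath it. The product of Angpt1 acts through the receptor TIE2, encoded by Tek, and keeps vessels quiet and tight. BMP9 acts through ALK1, encoded by Acvrl1, with endoglin as its partner. All these receptors are carried mainly by endothelial cells.

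The libraries held 14.7 to 21.2 M gene reads. Libraries of 24 months differed from all others in base composition. Averaged over reads, gene GC content came to 54.4, 54.7 and 56.1% at 24 months against 50.4 to 51.8% at the younger ages. A smooth curve on GC content and gene length carried 70.6% of the variance of the fold changes at 24 against 3 months, 31.8% at 12 against 3 months and 11.3% at 6 against 3 months. At 24 months, age and this trend cannot be told apart, so each member is given as counted and again, as the "corrected" value, after the trend was removed from each library. Composition scaling (TMM) factors were 0.521 to 0.826 in the 24-month libraries and 1.06 to 1.20 in the others. Scaling by library totals alone shifted the median log2 fold change of all genes at 24 against 3 months by -0.71, and median-ratio (RLE) factors by 0.13. Marker genes moved too. The summed level of 8 endothelial markers that are not members was 7089 to 14519 CPM (counts scaled to a common library size) at 24 months and 3044 to 3265 CPM at 3 months. Of the full list of 10, with Tie1 and Eng, 7 rose and 3 fell as counted, and 4 rose and 2 fell with the correction. Summed levels at 24 months and at 3 months were 2507 to 5353 and 751 to 977 CPM for 5 lung capillary markers, 288 to 327 and 526 to 646 CPM for 5 lymphatic markers, and 1258 to 2791 and 456 to 634 CPM for 7 pericyte and smooth muscle markers. They were 8714 to 12447 and 3146 to 4148 CPM for 5 alveolar type 1 markers, 32688 to 40729 and 18530 to 23223 CPM for 4 alveolar type 2 markers, and 238 to 276 and 572 to 616 CPM for 4 fibroblast markers. Leukocyte markers (5) summed to 254 to 512 and 174 to 203 CPM, and heart muscle markers (3) to 520.3 to 790.4 and 239 to 416 CPM. As counted, 4 capillary markers rose and 1 fell, 1 lymphatic rose and 4 fell, 5 pericyte and smooth muscle rose and 2 fell, 2 alveolar type 1 rose and 3 fell, and 3 alveolar type 2 rose and 1 fell. Of the fibroblast markers 1 rose and 3 fell, of the leukocyte markers 3 rose and 1 fell, and of the heart muscle markers 2 rose and 0 fell. With the correction, 4 capillary markers rose and 1 fell, and 1 lymphatic rose and 1 fell. Corrected, 5 pericyte and smooth muscle markers rose and 1 fell, and 1 alveolar type 1 rose and 0 fell. Of the alveolar type 2 markers 0 rose and 2 fell once corrected, and of the fibroblast markers 0 rose and 3 fell. In the corrected fit 3 leukocyte markers rose and 0 fell, and 1 heart muscle marker rose and 1 fell. The summed levels are uncorrected. No marker was at 0 in all libraries. The part of these shifts in the results for the members was not tested. In bulk tissue, fewer cells of a type and less RNA per cell cannot be told apart.

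Transcript GC content divided the members into groups. Flt4, Tie1, Acvrl1 and Eng had 56.5 to 57.6% GC in their longest protein-coding transcript, Vegfa, Kdr, Flt1 and Nrp1 had 49.4 to 50.9%, Tek had 47.1% and Angpt1 39.3%. The contrast is visible in the closest pair, Tek and Tie1, receptor kinases of the same small family. Their last 120 coding bases, 40 codons with the stop codon included (GENCODE M21), are shown because the pair moved in opposite directions with age. Capitals mark a G or C at the third base of a codon.
Tek: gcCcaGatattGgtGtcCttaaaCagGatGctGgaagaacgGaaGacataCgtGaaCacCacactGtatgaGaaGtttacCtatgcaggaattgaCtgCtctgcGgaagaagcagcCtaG
Tie1: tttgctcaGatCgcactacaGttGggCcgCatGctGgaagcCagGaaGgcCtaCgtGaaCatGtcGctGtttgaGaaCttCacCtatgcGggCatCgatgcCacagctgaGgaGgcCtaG
In Tek, read from the plus strand of mm10 in the exons chr4:94873097-94873141 and chr4:94873924-94873998, 24 of the 40 codons ended in G or C and the GC content of the stretch was 47.5%. In Tie1, on the minus strand in chr4:118472572-118472619 and chr4:118471521-118471592, 30 of the 40 did and the GC content was 55.8%.

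Promoters were matched for 8 of the 10 members in RefSeq (GRCm38.p6), as windows of 250 bases before to 50 after the annotated start. Those of the same pair and of Vegfa are shown, with capitals marking GGAA on either strand. GGAA holds the core letters bound by the ETS family of transcription factors.
Tie1 (chr4:118489800-118490099, minus strand): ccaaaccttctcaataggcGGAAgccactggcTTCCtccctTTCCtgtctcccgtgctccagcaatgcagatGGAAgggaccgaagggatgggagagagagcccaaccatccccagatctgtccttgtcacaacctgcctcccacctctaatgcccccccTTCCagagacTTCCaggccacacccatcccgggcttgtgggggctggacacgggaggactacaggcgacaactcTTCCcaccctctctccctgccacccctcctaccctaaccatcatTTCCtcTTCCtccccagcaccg
Tek (chr4:94739039-94739338, plus strand): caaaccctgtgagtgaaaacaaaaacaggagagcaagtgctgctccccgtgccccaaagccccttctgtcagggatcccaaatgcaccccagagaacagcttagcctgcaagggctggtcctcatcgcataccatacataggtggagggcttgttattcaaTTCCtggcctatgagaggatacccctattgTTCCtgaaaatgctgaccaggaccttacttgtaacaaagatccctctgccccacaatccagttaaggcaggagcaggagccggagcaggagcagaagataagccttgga
Vegfa (chr17:46032328-46032627, minus strand): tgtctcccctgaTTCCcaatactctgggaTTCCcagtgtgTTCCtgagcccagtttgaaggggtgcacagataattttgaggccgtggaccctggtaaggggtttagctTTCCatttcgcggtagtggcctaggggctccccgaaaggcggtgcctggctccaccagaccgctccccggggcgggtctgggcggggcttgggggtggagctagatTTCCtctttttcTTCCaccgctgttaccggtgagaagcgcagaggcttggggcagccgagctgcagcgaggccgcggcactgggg
The Tie1 window held 9 such cores, and 1.59% of 32851 mouse promoters of the same length held at least as many, the median being 3. The Vegfa window held 6, Kdr and Nrp1 held 5, Flt1 and Eng held 4, and Tek and Flt4 held 2. At least 1 core was found in 96.0% of all promoters. The hypoxia response core, searched as ACGTG or GCGTG on either strand, occurred 2 times in the Kdr window, 1 time each in Flt1 and Nrp1 and not in this Vegfa window, against 43.8% of all promoters with at least 1. The window of another annotated Vegfa start, at chr17:46025114-46025413 on the minus strand, held 2 of them and 3 ETS cores. A match describes letters and not binding, and a missing match says only that these letters are not in this window.

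At 24 against 3 months, Vegfa, Angpt1, Kdr, Flt1, Nrp1 and Tek were lower and Flt4, Tie1, Acvrl1 and Eng were higher as counted. All 10 members were called by the edgeR quasi-likelihood F test at an adjusted p under 0.05, 4 higher and 6 lower, where 82.8% of all tested genes were called, 38.2% higher and 44.6% lower. The background was thus itself high, and the count of members is read against it. With the correction 8 members were called, 3 higher (Tie1, Acvrl1 and Eng) and 5 lower (Vegfa, Kdr, Flt1, Nrp1 and Tek), against 56.5% of all tested genes, 29.6% higher and 26.9% lower. The median log2 fold change of the members was -1.73 as counted, against -0.29 over all tested genes, and -0.24 with the correction, against 0.0020. Scaled by library totals alone, 4230 genes were called higher and 8544 lower, where the TMM fit had 6128 and 7149. The members kept their directions and calls under that scaling.

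**Figure D1:**
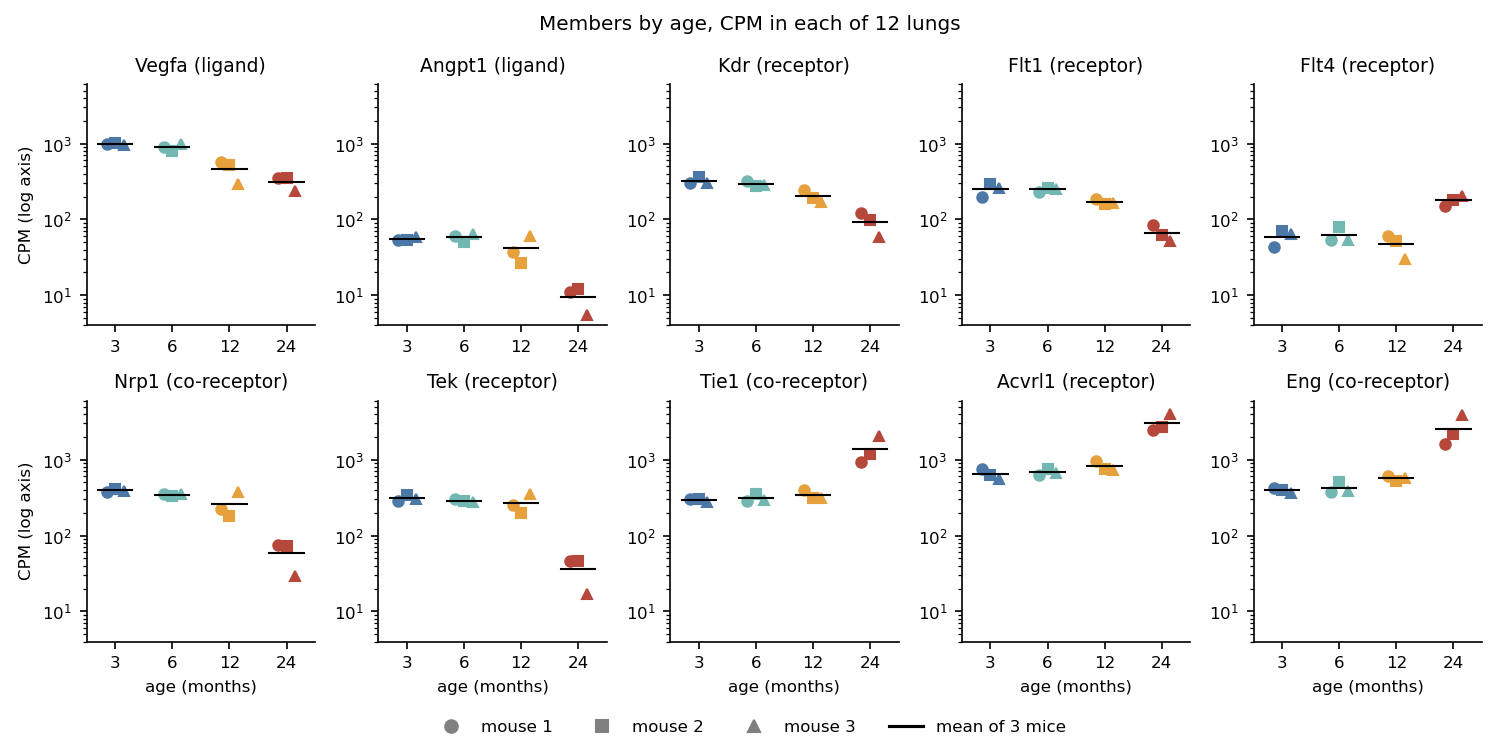
CPM (log axis) of each member in each of the 12 lungs by age in months, with 1 point per mouse and a black line at the mean of 3 mice. The 24-month lungs lie below the 3-month lungs for Vegfa, Angpt1, Kdr, Flt1, Nrp1 and Tek and above them for Flt4, Tie1, Acvrl1 and Eng, and 24-month mouse 3 is the most extreme of its age in all 10 panels.

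Vegfa (ENSMUSG00000023951, chr17:46016993-46032377), the ligand of KDR and FLT1, fell at 12 and at 24 months in both fits. Its levels were 972, 1018 and 965 CPM in the 3-month mice, 911, 799 and 1001 CPM at 6 months, 579, 529 and 295 CPM at 12 months, and 355, 348 and 237 CPM at 24 months. All 12-month and 24-month lungs lay below all younger ones, and 12-month mouse 3 lay below 24-month mice 1 and 2. At 24 against 3 months Vegfa averaged 313 ± 65.9 against 985 ± 29.0 CPM (SD, n = 3 each), a log2 fold change of -1.65 ± 0.25 (SE, edgeR adjusted p = 2.0e-05). With the correction the log2 fold change was -1.62 ± 0.14 (adjusted p = 7.4e-07), and the trend at its GC content and length amounted to -0.02. On corrected levels the 24-month mice had 327, 326 and 278 CPM and the 3-month mice 963, 975 and 923 CPM.

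Angpt1 (ENSMUSG00000022309, chr15:42424727-42676977), the activating ligand of TIE2, has the lowest GC content of the members. It had 54.3, 53.2 and 58.0 CPM at 3 months, 60.4, 50.2 and 63.6 CPM at 6 months, 37.4, 26.8 and 60.3 CPM at 12 months, and 11.2, 12.2 and 5.50 CPM at 24 months. As counted, every 24-month lung lay below every younger lung (log2 -2.50 ± 0.31 against 3 months, adjusted p = 2.4e-06). The trend at its GC content and length was -2.85, and the corrected log2 fold change was 0.25 ± 0.12 (adjusted p = 0.089). Corrected levels were 35.8, 37.4 and 33.8 CPM at 24 months and 31.2, 28.3 and 30.0 CPM at 3 months, so the direction of Angpt1 turned with the correction and the difference did not pass the test.

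Kdr (ENSMUSG00000062960, chr5:75932827-75978458), which encodes VEGFR2, the main signalling receptor of VEGF-A, fell with age. It had 307, 361 and 306 CPM at 3 months, 320.5, 277 and 285 CPM at 6 months, 245, 192 and 169.7 CPM at 12 months, and 120.4, 97.2 and 58.6 CPM at 24 months. The 24-month lungs were below all others, and the 12-month lungs were below all 3-month and 6-month lungs. Its log2 fold change at 24 against 3 months was -1.82 ± 0.25 (adjusted p = 6.9e-06), becoming -0.53 ± 0.15 after correction (adjusted p = 0.0068). Corrected levels were 189, 163 and 132 CPM at 24 months against 257, 241 and 203 CPM at 3 months, without overlap.

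Flt1 (ENSMUSG00000029648, chr5:147561604-147726011) encodes VEGFR1, which binds VEGF-A tightly and limits what reaches KDR. Flt1 levels were 198, 293 and 260.5 CPM at 3 months, 230.0, 261 and 255 CPM at 6 months, 184, 158 and 166 CPM at 12 months, and 83.9, 62.2 and 51.5 CPM at 24 months. Each 24-month lung had less than each younger lung. The log2 fold change at 24 against 3 months was -1.93 ± 0.22 (adjusted p = 1.4e-06) and, corrected, -0.90 ± 0.14 (adjusted p = 8.2e-05). Corrected levels averaged 99.5 ± 14.4 CPM at 24 months against 187 ± 30.0 CPM at 12 months (log2 -0.91 ± 0.14, adjusted p = 0.00012).

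Flt4 (ENSMUSG00000020357, chr11:49609263-49652739), VEGFR3, the receptor of VEGF-C and VEGF-D on lymphatic endothelium, was the only VEGF receptor gene of the 3 that was higher at 24 months as counted. It had 43.3, 71.2 and 63.7 CPM at 3 months, 54.0, 78.5 and 52.9 CPM at 6 months, 61.0, 51.6 and 30.3 CPM at 12 months, and 149, 179 and 206 CPM at 24 months. The 24-month lungs were above all others. The log2 fold change against 3 months was 1.58 ± 0.28 (adjusted p = 6.7e-05), the trend at its GC content and length was 1.64, and the corrected value was 0.04 ± 0.16 (adjusted p = 0.834). The other 4 lymphatic markers, Lyve1, Mmrn1, Prox1 and Pdpn (Pdpn is also a marker of alveolar type 1 cells), were called lower as counted, and with the correction Lyve1 was lower and Prox1 higher. Their summed level was 82.1 to 178 CPM at 24 months against 483 to 582 CPM at 3 months.

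Nrp1 (ENSMUSG00000025810, chr8:128359073-128505462), neuropilin-1, presents VEGF-A to KDR. Its levels were 377, 416 and 391 CPM at 3 months, 349.9, 332 and 355 CPM at 6 months, 224, 179 and 374 CPM at 12 months, and 74.9, 72.6 and 29.0 CPM at 24 months. At 12 months mouse 3 stood far above the other two, inside the range of the younger mice. The fall at 24 against 3 months was -2.74 ± 0.34 on the log2 scale (adjusted p = 2.2e-06), becoming -1.74 ± 0.31 after correction (adjusted p = 0.00042). This corrected value rests on the transcript chosen for GC content: the longest protein-coding transcript has 3597 bases and 50.01% GC, where the deposited gene length is 5907 bases, and the longest transcript of any kind has 41.9% GC. With the GC content of that longer transcript, an alternative chosen after seeing the data, the corrected log2 fold change of Nrp1 was 0.05 (adjusted p = 0.771), so its call was lost.

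Tek (ENSMUSG00000006386, chr4:94739289-94874976), TIE2, the receptor of the angiopoietins, had the largest fall of the 10 as counted. It had 284, 345 and 306 CPM at 3 months, 298, 282 and 279.7 CPM at 6 months, 249, 198 and 348 CPM at 12 months, and 45.7, 45.7 and 16.7 CPM at 24 months. The 3 younger ages overlapped, and all 24-month lungs lay far below them. Tek averaged 36.0 ± 16.7 CPM at 24 months against 312 ± 31.0 CPM at 3 months (log2 -3.11 ± 0.33, adjusted p = 6.5e-07), and the corrected log2 fold change was -1.14 ± 0.21 (adjusted p = 0.00031). Corrected, the 24-month mice had 99.6, 112 and 59.1 CPM and the 3-month mice 199, 214 and 188 CPM.

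Tie1 (ENSMUSG00000033191, chr4:118471191-118490061), the orphan partner of TIE2, went the other way. Levels of Tie1 were 299.9, 302 and 274 CPM at 3 months, 285, 354 and 296 CPM at 6 months, 394, 312 and 316 CPM at 12 months, and 935, 1181 and 2045 CPM at 24 months. The 24-month lungs were above all others, with mouse 3 the highest. The log2 fold change at 24 against 3 months was 2.25 ± 0.26 (adjusted p = 1.5e-06), and 1.42 when scaled by library totals. The corrected value was 0.34 ± 0.12 (adjusted p = 0.022), with 519, 559 and 543 CPM at 24 months against 466, 420.5 and 399 CPM at 3 months. That corrected call was lost on leaving out 3-month mouse 2 (adjusted p = 0.068), 3-month mouse 3 (0.098) or 24-month mouse 2 (0.063).

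Acvrl1 (ENSMUSG00000000530, chr15:101128522-101145336), ALK1, the endothelial receptor of BMP9 and BMP10, had 749, 636 and 557 CPM at 3 months, 636, 753 and 667 CPM at 6 months, 966, 758 and 735 CPM at 12 months, and 2424, 2657 and 3933 CPM at 24 months. The 24-month lungs did not overlap with the others. At 24 against 3 months the log2 fold change was 2.21 ± 0.23 (adjusted p = 5.4e-07), 1.42 by library totals, and 0.47 ± 0.13 with the correction (adjusted p = 0.0079). In FPKM, the authors' level scaled by gene length and library total, the 24-month mice were close together, at 549.7, 559 and 563 FPKM against 238, 209.9 and 176 FPKM in the 3-month mice.

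Eng (ENSMUSG00000026814, chr2:32646595-32682669), endoglin, the co-receptor that binds BMP9 with ALK1, had the largest increase of the 10. Its levels were 418, 399 and 366 CPM at 3 months, 376, 503 and 387 CPM at 6 months, 615, 528 and 569.9 CPM at 12 months, and 1626, 2164 and 3836 CPM at 24 months. All 12-month lungs were above the 3-month and 6-month lungs, and the 24-month lungs were above all. The log2 fold change at 24 against 3 months was 2.69 ± 0.28 (adjusted p = 5.3e-07), 1.85 by library totals, and 0.78 ± 0.13 with the correction (adjusted p = 0.00012). Corrected levels were 893, 1034 and 1059 CPM at 24 months against 622, 568 and 543 CPM at 3 months.

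**Figure D2:**
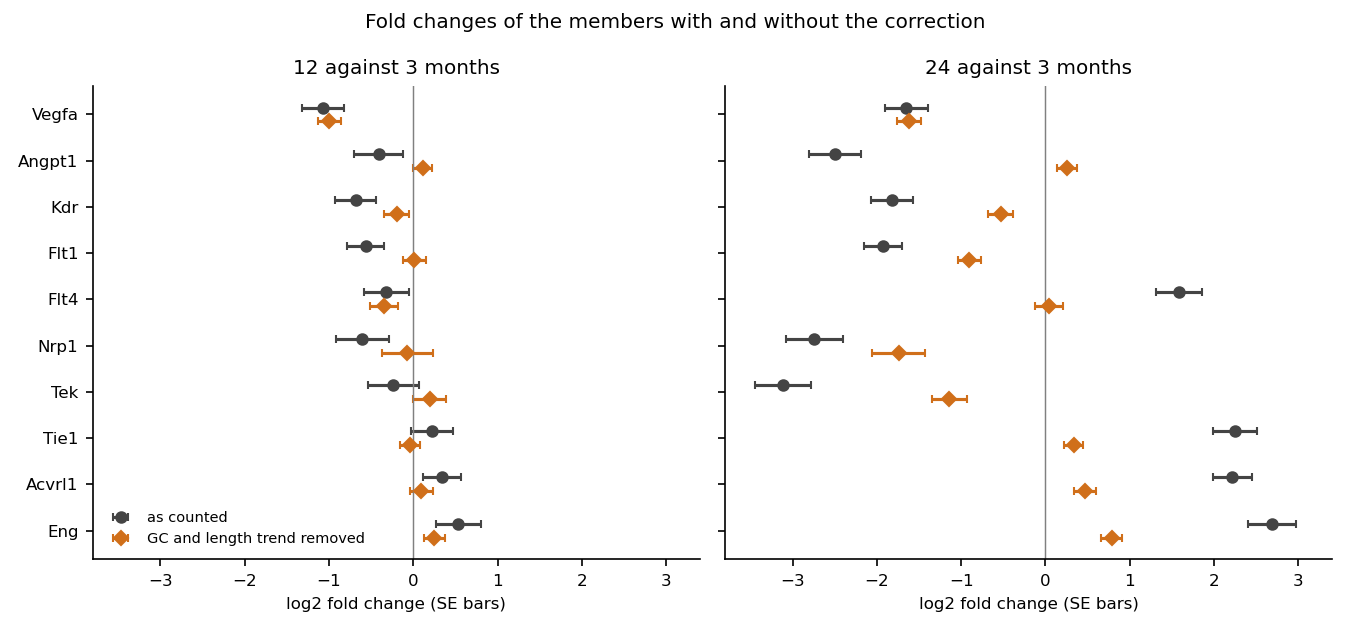
Log2 fold changes of the members with SE bars at 12 against 3 months and at 24 against 3 months, as counted (circles) and with the GC and length trend removed (diamonds). At 24 against 3 months Vegfa is nearly the same in both (-1.65 and -1.62), while Angpt1 (-2.50 and 0.25) and Flt4 (1.58 and 0.04) lose their change.

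The members were also set against genes of like GC content, without regard to length. At 24 against 3 months Angpt1 and Flt4 lay within the middle 50% of genes of their GC class, as did Tie1 and Acvrl1. Eng lay above that range, and Vegfa, Kdr, Flt1, Nrp1 and Tek lay below it. For Nrp1 this held at the GC content of the transcript used for the correction. At 41.9%, the GC content of its longest transcript of any kind, the Nrp1 value of -2.74 lay within the middle 50% of that class. At 6 against 3 months the course was nearly flat.

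**Figure D3:**
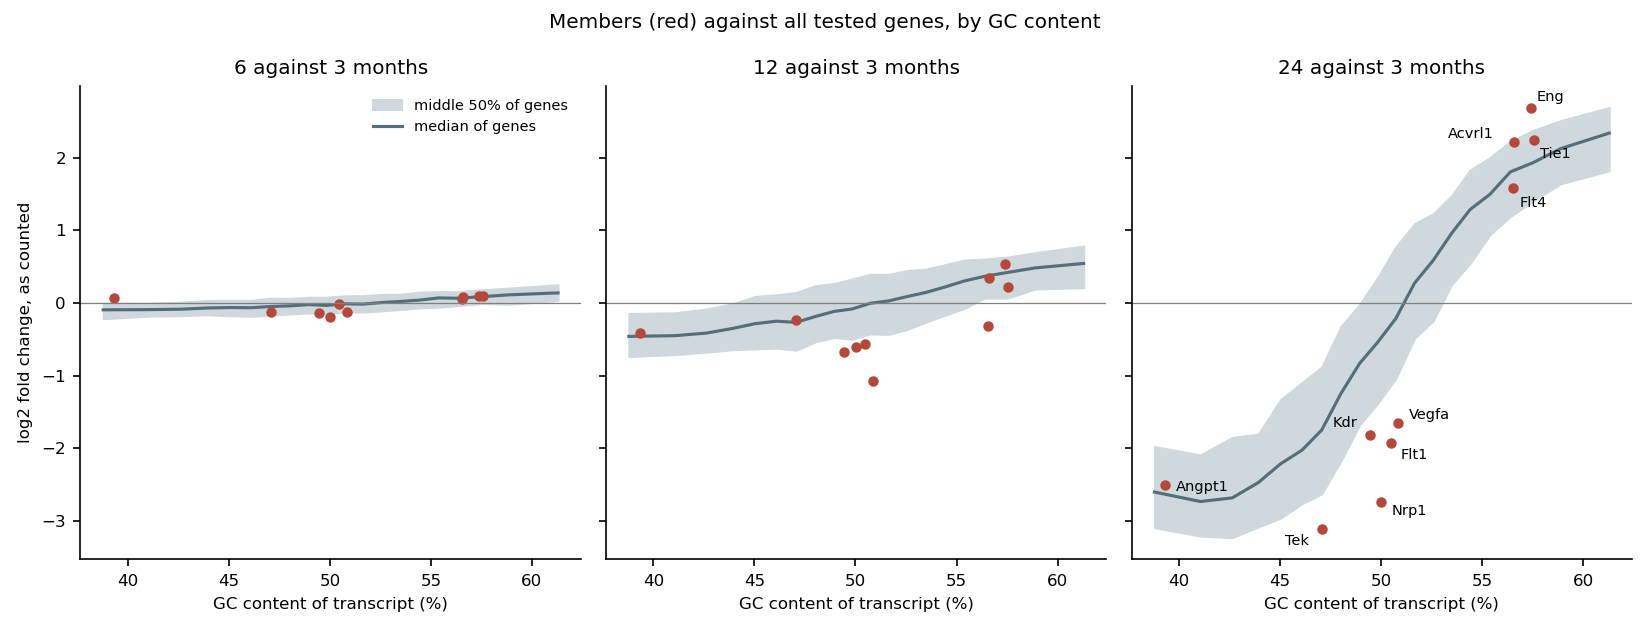
Log2 fold change as counted against transcript GC content (%), with the members as red points and all tested genes in 20 classes of GC content as a line (median) and a band (middle 50% of genes). The line is nearly flat at 6 against 3 months and steep at 24 against 3 months, where Vegfa (-1.65), Kdr (-1.82), Flt1 (-1.93), Nrp1 (-2.74) and Tek (-3.11) lie below the band, Nrp1 only at the GC content plotted and not at the 41.9% of its longest transcript of any kind.

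At 6 against 3 months edgeR called 0 of the 10 members, with 0 at an unadjusted p under 0.05, and DESeq2 and limma voom called 0. In that comparison edgeR called 0% of all tested genes, with 267 at an unadjusted p under 0.05 and 6 by DESeq2. Member log2 fold changes lay between -0.19 (Nrp1) and 0.10 (Eng). With the correction 0 members and 0.00627% of all genes were called.

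At 12 against 3 months Vegfa was the 1 member called, where 15.2% of all tested genes were called, 6.3% higher and 8.87% lower. It averaged 467 ± 152 CPM at 12 months against 985 ± 29.0 CPM at 3 months, a log2 fold change of -1.08 ± 0.25 (adjusted p = 0.015). This call was lost without 3-month mouse 2 (adjusted p = 0.068) or 3-month mouse 3 (adjusted p = 0.053). With the correction Vegfa was again the 1 member called, against 18.5% of all genes (10.1% higher and 8.33% lower), at -0.99 ± 0.14 (adjusted p = 0.0011), and it kept that call whichever mouse was left out. Kdr had -0.68 ± 0.24 (adjusted p = 0.069), Flt1 -0.56 ± 0.22 (adjusted p = 0.082) and Eng 0.53 ± 0.26 (adjusted p = 0.161), and their corrected values were -0.20 (adjusted p = 0.358), 0.01 (0.961) and 0.25 (0.176). The authors' deposited table marked 4 members as significant at 12 against 3 months (Vegfa, Kdr, Flt1 and Eng), all 10 at 24 against 3 months and 0 at 6 against 3 months. Of the genes with an adjusted p there, the authors' deposited table marked 27.2% at 12 against 3 months, 69.4% at 24 against 3 months and 0.126% at 6 against 3 months. Without the 24-month libraries the fit called 5 members at 12 against 3 months, Nrp1 besides those 4, where it called 5748 of 15908 genes (36.1%), against 2433 in the fit of all libraries. The lung of 12-month mouse 3 stood apart from the other 12-month lungs in several members, being lowest for Vegfa and Flt4 and highest for Nrp1, Tek and Angpt1. It was also lowest for Kdr and Acvrl1. Its gene GC content averaged over reads was 50.7%, against 51.7 and 51.8% in the other 12-month libraries. The part of this difference in these values was not tested.

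At 24 against 12 months all 10 members were called as counted, 4 higher and 6 lower, where 79.7% of all genes were called, 37.3% higher and 42.5% lower. With the correction 7 were called, against 43% of all genes, 21.2% higher and 21.7% lower. These were Tie1 (0.38 ± 0.12), Acvrl1 (0.37 ± 0.13) and Eng (0.54 ± 0.13), which rose, and Vegfa (-0.62 ± 0.14), Flt1 (-0.91 ± 0.14), Nrp1 (-1.67 ± 0.31) and Tek (-1.33 ± 0.21), which fell. With the GC content of the longest transcript of any kind, Nrp1 had 0.12 (adjusted p = 0.517). Vegfa as counted was the weakest of the 10, at -0.58 ± 0.25 (adjusted p = 0.043), and its call was lost without 12-month mouse 1 (adjusted p = 0.059), 12-month mouse 2 (0.132) or 24-month mouse 3 (0.107). It was also lost with RLE size factors (-0.48, adjusted p = 0.0764), with limma voom (-0.54, adjusted p = 0.0502), without the filter on low counts (-0.56, adjusted p = 0.0533), with the mouse number as a replicate block (-0.56, adjusted p = 0.0517) and with only the 6 libraries compared (-0.64, adjusted p = 0.0763). The corrected call of Acvrl1 was lost when mouse 2 or 3 of 12 months or mouse 1 or 2 of 24 months was left out (adjusted p up to 0.155), and that of Tie1 without mouse 2 of 12 months (0.091) or of 24 months (0.051). A test of any difference among the 4 ages called all 10 members, where 84.6% of all genes were called, and 8 with the correction, against 57.5% of all genes.

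On the length-scaled FPKM, the order of the members changed with age. At 3 months the mean levels were, from the top, Vegfa 334, Acvrl1 208, Eng 129, Tie1 80.7, Tek 78.5, Nrp1 78.2, Kdr 64.2, Flt1 42.6, Angpt1 15.1 and Flt4 11.1 FPKM. Tie1, Tek and Nrp1 overlapped at that age, and each other member stood above the next in all mice. At 6 months the order was the same, and at 12 months Acvrl1 led with 241 ± 41.0 FPKM, while Eng (171 ± 15.3) and Vegfa (145 ± 48.4) overlapped. At 24 months the order was Acvrl1 557, Eng 466, Tie1 216, Vegfa 66.0, Flt4 19.6, Kdr 11.5, Nrp1 7.48, Flt1 6.95, Tek 5.83 and Angpt1 1.68 FPKM. Kdr, Nrp1, Flt1, Tek and Angpt1 each overlapped with the next in that order, as did Acvrl1 with Eng. FPKM are uncorrected, so the trend enters these orders.

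Ratios within a lung do not depend on library scaling. The 5 that pair a ligand with its receptor or a receptor with its partner were tested for any difference among the 4 ages by an exact permutation test of the F statistic on log2 FPKM ratios over 369600 arrangements of the mice, with Benjamini-Hochberg adjustment over the 5. Tek to Tie1, the receptor to its partner, was 0.0445, 0.0352 and 0.00745 in the 24-month lungs and 0.861, 1.04 and 1.02 in the 3-month lungs. The groups lay far apart, and the log2 ratio differed by -5.42 (adjusted p over the 4 ages = 0.0089). With the correction that difference was -1.55 (adjusted p over the 4 ages = 0.0081). Here and below, the p of a ratio is for any difference among the 4 ages by permutation. The 24 against 3 months differences printed with it were not tested alone. Angpt1 to Tek, ligand to receptor, was 0.268, 0.293 and 0.359 at 24 months against 0.209, 0.168 and 0.207 at 3 months, without overlap (log2 difference 0.65, adjusted p = 0.0084). Once corrected, that difference was 1.45 (adjusted p = 0.0081).

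Vegfa to Kdr was 5.06, 6.14 and 6.96 at 24 months against 5.44, 4.84 and 5.41 at 3 months, and lowest at 12 months, at 4.05, 4.72 and 2.98. As counted the ages differed (adjusted p = 0.029), but the 24-month and 3-month lungs overlapped, with a log2 difference of 0.20 between them. With the correction the difference at 24 against 3 months was -1.08, of the opposite sign (adjusted p over the 4 ages = 0.0081). The call as counted was lost on leaving out any 1 of 8 of the 12 mice, with an adjusted p of 0.139 without 12-month mouse 3. Eng to Acvrl1 was 0.683, 0.830 and 0.994 at 24 months against 0.569, 0.640 and 0.669 at 3 months (log2 difference 0.40, adjusted p = 0.0499), and the lowest 24-month lung lay just above the highest 3-month lung. Its adjusted p was 0.080 with the correction, and as counted the call was lost without any 1 of 11 of the 12 mice (adjusted p up to 0.182). Flt1 to Kdr was 0.598, 0.549 and 0.756 at 24 months against 0.555, 0.697 and 0.731 at 3 months, with overlap (log2 difference -0.06, adjusted p = 0.554). Once corrected, it was -0.37 (adjusted p = 0.059). Without the 24-month libraries, 0 of the 5 ratios passed by the same exact permutation test (adjusted p 0.196 to 0.621), and 1, Vegfa to Kdr, had an unadjusted p under 0.05 (p = 0.043).

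**Figure D4:**
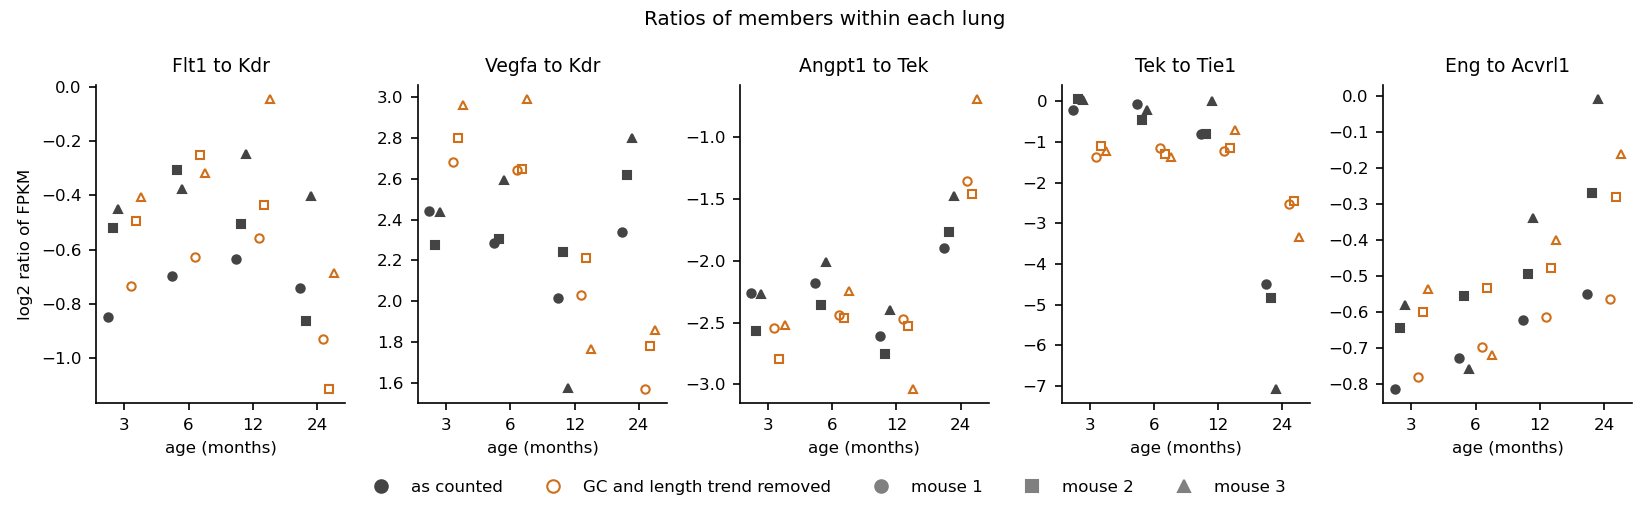
Log2 ratios of the FPKM of 2 members within each lung by age in months, as counted (filled) and with the GC and length trend removed (open). Tek to Tie1 is lowest at 24 months in both, while Vegfa to Kdr at 24 months is high as counted and low with the correction.

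The other genes of these pathways were followed as 7 lists with 74 tested genes. From each list, some of those with the smallest p in either fit are named. Of the 74, 58 were called at 24 against 3 months and 40 with the correction, and 12 and 20 at 12 against 3 months. At 6 against 3 months edgeR called 0 of them, with 2 at an unadjusted p under 0.05. The percentages of all genes called, given above for each comparison, are the background of these counts. Of the 5 other VEGF ligands and co-receptors, 2 were higher and 1 lower at 24 against 3 months (median log2 -0.06), and 3 were higher and 1 lower with the correction (median 0.77). Pgf, placental growth factor, a ligand of FLT1, rose in both fits (2.30 ± 0.28, adjusted p = 2.4e-06, and 0.77 ± 0.17 corrected, adjusted p = 0.0016). Nrp2, the neuropilin of lymphatic vessels, fell in both (-1.23 ± 0.22, adjusted p = 7.4e-05, and -0.50 ± 0.12 corrected, adjusted p = 0.0032). Vegfb rose as counted (2.21 ± 0.24) and had 0.09 ± 0.13 with the correction (adjusted p = 0.579). The FLT4 ligand genes Vegfc and Figf rose only in the corrected fit, at 1.26 ± 0.24 and 1.51 ± 0.23, and had -0.43 (adjusted p = 0.089) and -0.06 (adjusted p = 0.804) as counted.

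Among 5 genes of the angiopoietin pathway, 1 was higher and 3 were lower at 24 against 3 months in both fits, with medians of -2.23 and, corrected, -0.55. Foxo1, the transcription factor that TIE2 signalling holds out of the nucleus, averaged 59.1 CPM at 3 months, 51.7 CPM at 6 months, 32.5 CPM at 12 months, and was lowest at 24 months. It fell at 24 against 3 months (-2.56 ± 0.20, adjusted p = 6.0e-08, and -0.92 ± 0.13 corrected, adjusted p = 2.8e-05) and at 12 against 3 months (-0.86 ± 0.19, adjusted p = 0.010, and -0.38 ± 0.12 corrected, adjusted p = 0.037). Ptprb, VE-PTP, the phosphatase that restrains TIE2, had -2.79 ± 0.29 and -0.52 ± 0.15 corrected (adjusted p = 0.010). Angpt2, the context-dependent antagonist of ANGPT1, had -2.23 ± 0.32 and -0.64 ± 0.23 corrected (adjusted p = 0.027). The higher gene was not the same in both fits: it was Angpt4 as counted (1.02 ± 0.28, and -0.55 with an adjusted p of 0.069 corrected) and Svep1 with the correction (0.45 ± 0.16, and -0.19 with an adjusted p of 0.491 as counted).

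Among 13 tested genes of the BMP9 and ALK1 pathway, 3 were higher and 7 lower at 24 against 3 months (median -0.97), and 2 were higher and 3 lower with the correction (median -0.07). The ligand gene Bmp10, a heart product, had 0 reads in all 12 libraries. Smad1, a transducer of ALK1, had -0.97 ± 0.17 (adjusted p = 6.7e-05) and -1.15 ± 0.14 corrected (adjusted p = 8.3e-06). Smad4, the common partner of the receptor-activated SMADs, had -1.63 ± 0.21 and -1.02 ± 0.16 corrected (adjusted p = 0.00010). Bmpr2, the type II receptor that pairs with ALK1, fell as counted (-2.20 ± 0.30, adjusted p = 5.6e-06) and rose with the correction (0.68 ± 0.14, adjusted p = 0.0010). Smad7, an inhibitory SMAD, had 0.48 (adjusted p = 0.067) as counted and fell with the correction (-1.23 ± 0.22, adjusted p = 0.00027). As counted, the smallest p-values were those of Smad5 (-2.32 ± 0.20, adjusted p = 1.3e-07) and Smad6 (2.09 ± 0.24, adjusted p = 1.2e-06). Corrected, Smad5 had 0.39 (adjusted p = 0.080) and Smad6 had 0.01 (adjusted p = 0.971). Acvrl1 and Eng, the receptors of the same pathway, were higher in both fits.

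Of 8 genes of the oxygen-sensing system that controls Vegfa, 2 were higher and 3 lower at 24 against 3 months, and 0 were higher and 2 lower with the correction. At 12 against 3 months 3 were lower and 0 higher in both fits, and these were Epas1, Hif3a and Arnt. Epas1, HIF-2α, the hypoxia-inducible factor most typical of endothelium, averaged 2421 ± 446 CPM at 3 months, 2134 ± 191 CPM at 6 months, 1124 ± 305 CPM at 12 months and 1433 ± 129 CPM at 24 months (SD, n = 3 each). It fell at 12 against 3 months (-1.11 ± 0.23, adjusted p = 0.0089, and -0.85 ± 0.12 corrected, adjusted p = 0.0010) and at 24 against 3 months (-0.76 ± 0.23, adjusted p = 0.0059, and -1.06 ± 0.12 corrected, adjusted p = 4.7e-06). At 24 against 12 months Epas1 was not called (0.35 ± 0.23, adjusted p = 0.163, and -0.21 ± 0.12 corrected, adjusted p = 0.159), while Vegfa was called lower. A link between Epas1 and Vegfa was not tested. Hif1a fell as counted (-3.10 ± 0.28) and had -0.23 ± 0.14 corrected (adjusted p = 0.168). At 24 against 3 months Arnt fell (-1.47 ± 0.18, adjusted p = 2.1e-06) and Egln2 rose (2.49 ± 0.34, adjusted p = 5.8e-06) as counted. Corrected, Arnt had 0.15 (adjusted p = 0.274) and Egln2 had 0.13 (adjusted p = 0.326). Egln1, the main oxygen-sensing prolyl hydroxylase, was higher as counted (0.72 ± 0.22, adjusted p = 0.0066) and lower with the correction (-0.85 ± 0.21, adjusted p = 0.0037).

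Of 19 genes of signal transduction below the VEGF receptors, 9 were higher and 9 lower at 24 against 3 months (median -0.22), and 9 were higher and 5 lower with the correction (median 0.27). At 12 against 3 months 0 were higher and 2 lower, and 2 were higher and 3 lower with the correction. Pik3r1, the regulatory subunit of PI3-kinase, averaged 9.02 ± 4.11 CPM at 24 months against 112 ± 11.2 CPM at 3 months (-3.63 ± 0.31, adjusted p = 1.1e-07, and -1.004 ± 0.15 corrected, adjusted p = 4.9e-05). Pik3r1 fell also at 12 against 3 months (-1.18 ± 0.28, adjusted p = 0.015, and -0.61 ± 0.13 corrected, adjusted p = 0.0084). The adaptor gene Gab1 fell at 24 against 3 months (-0.82 ± 0.20, and -1.04 ± 0.13 corrected, adjusted p = 1.4e-05). Among those that rose, and chosen after their values were seen, were Akt1, the kinase that PI3-kinase signalling activates (2.52 ± 0.28, adjusted p = 9.4e-07, and 0.39 ± 0.10 corrected, adjusted p = 0.0033), and, with the correction alone, the small GTPase Rac1 (-0.22, adjusted p = 0.290, and 0.68 ± 0.13 corrected, adjusted p = 0.00037).

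Of 12 Notch and tip cell genes, 8 were higher and 2 lower at 24 against 3 months (median 0.89), and 3 were higher and 3 lower with the correction (median 0.03). At 12 against 3 months 2 were lower, and 5 were lower with the correction. Esm1, endocan, a tip cell gene induced by VEGF-A, averaged 0.925 ± 0.369 CPM at 24 months against 14.5 ± 1.30 CPM at 3 months (-3.93 ± 0.31, adjusted p = 6.4e-08, and -2.002 ± 0.24 corrected, adjusted p = 7.9e-06). At 12 against 3 months Esm1 was lower as well (-0.87 ± 0.24, adjusted p = 0.030, and -0.70 ± 0.17 corrected, adjusted p = 0.013). The Notch ligand gene Jag1 had -2.82 ± 0.20 and -1.25 ± 0.16 corrected at 24 against 3 months (adjusted p = 1.6e-05). Cxcr4 had -0.02 as counted and rose with the correction (1.45 ± 0.17, adjusted p = 8.6e-06).

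Of 12 endothelial transcription factors, 4 were higher and 4 lower at 24 against 3 months (median -0.14), and 0 were higher and 5 lower with the correction (median -0.30). Erg, the ETS factor that maintains endothelial identity, averaged 10.99 ± 3.69 CPM at 24 months against 95.5 ± 2.14 CPM at 3 months (-3.11 ± 0.27, adjusted p = 1.2e-07), and its corrected value was close to that (-3.08 ± 0.28, adjusted p = 1.0e-06). Ets1 had -2.52 ± 0.20 and -0.46 ± 0.18 corrected (adjusted p = 0.044). Klf4, induced by shear stress, had -0.49 (adjusted p = 0.054) and fell with the correction (-1.85 ± 0.14, adjusted p = 1.9e-07). At 12 against 3 months 3 of the 12 were lower and 5 with the correction, among them Sox7 in both fits (-1.20 ± 0.27, adjusted p = 0.013, and -1.14 ± 0.18 corrected, adjusted p = 0.0018). The 10 general endothelial markers include the members Tie1 and Eng. Of the 10, 7 rose and 3 fell at 24 against 3 months, and 4 rose and 2 fell with the correction. Cdh5 (-0.79 and -1.23 corrected) and Pecam1 (-0.79 and -0.54 corrected) fell in both fits, and Vwf (3.35 and 1.81 corrected) and Esam rose in both. Eng and Tie1 rose in both too, which repeats the member results above.

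**Figure D5:**
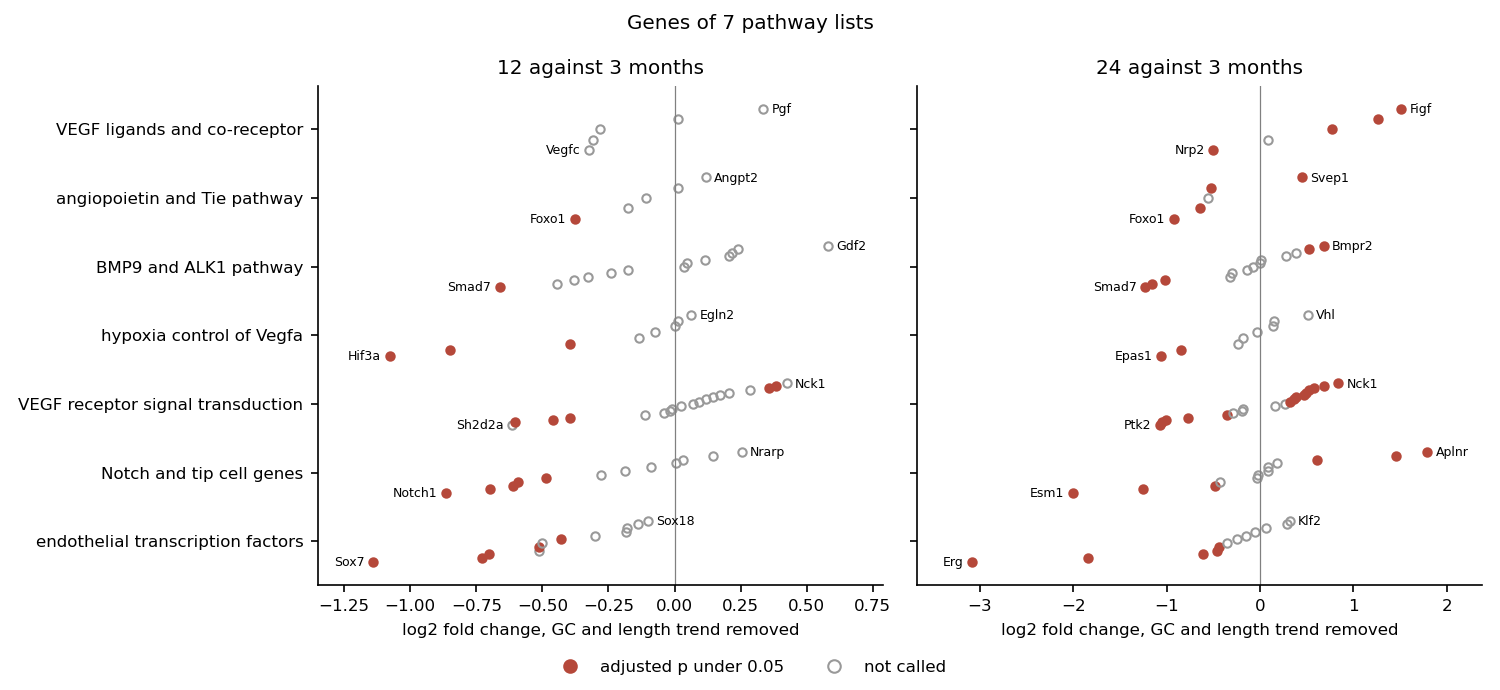
Corrected log2 fold changes of the tested genes of 7 pathway lists at 12 against 3 months and at 24 against 3 months, 1 point per gene, red where the adjusted p was under 0.05. At 24 against 3 months Erg (-3.08), Esm1 (-2.002) and Klf4 (-1.85) lie lowest, and Aplnr (1.79), Figf (1.51) and Cxcr4 (1.45) highest.

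The genes most like each member over the 12 libraries were found by the root-mean-square (RMS) difference of centred corrected log2 CPM among 13440 genes, with no test. Nearest were Mir22hg for Vegfa (RMS 0.0581), Csnk1g2 for Angpt1 (0.0870), Whsc1l1 for Kdr (0.106), Cat for Flt1 (0.0873) and Nfic for Flt4 (0.101). For the others they were Maml2 for Nrp1 (0.165), Btf3 for Tek (0.0990), Smarcd1 for Tie1 (0.0789), Tnfrsf1a for Acvrl1 (0.0782) and Ephb4 for Eng (0.0764). Tie1 and Acvrl1 were close to each other (RMS 0.0952), at rank 4 from Acvrl1 and rank 10 from Tie1. For Kdr the nearest member, Flt1, stood at rank 2516, and for Vegfa it was also Flt1, at rank 1555. As counted Flt1 stood at rank 45 from Kdr.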

How the data were processed

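RNA was measured by sequencing of poly(A) RNA libraries (NEBNext Ultra, per the labels' protocols) of whole lungs of 12 mice, 3 at each of 4 ages. Per the file headers, the authors deposited read counts per gene, FPKM per library and per age, mean scaled signal per age (not used here), log2 fold changes against 3 months and p-values. TopHat, STAR 2.5, HTSeq 0.6.1 and the build mm10 are named in the submitters' processing notes, with no roles. Strandedness was not given in the sources used here, so reads of overlapping antisense genes cannot be told apart. The deposited FPKM equalled reads scaled by gene length and by the total of gene reads in 423300 of 423300 values, within a relative difference of 1e-05.

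The counts were tested with edgeR 4.0.16 (R 4.3.3; TMM scaling, filterByExpr, robust quasi-likelihood F test) in 1 model of age over all 12 libraries, with Benjamini-Hochberg adjustment over 16042 genes. A call is an adjusted p under 0.05. SEs are on the log2 scale and were derived from the log2 fold change and its F statistic. Log2 CPM were taken with a prior count of 2. GC content came from the longest protein-coding GENCODE M21 transcript and was found for 97.8% of gene IDs. For the correction, a smooth surface on GC content and length (mgcv 1.9.3) was fitted to the deviations of each library and used as an offset, leaving 15949 genes. Ratios were tested by exact permutation, whose smallest possible p is 6.49e-05. Scripts were tested on simulated data. The members and the lists were chosen with earlier results of these data known. From each list the 4 genes with the smallest p in either fit could be named, and for each member the genes most like it. Alternatives were DESeq2 1.42.0, limma 3.58.1 voom, other scalings and filters, a block, fewer libraries and other GC values. The 3 mice of an age were separate animals, and total counts of 14.7 to 21.2 M limit the precision of the scarcest genes. A gene of the signal transduction list that this rule would name is not reported here.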

Additional observations from a re-analysis of the deposited data

How the results depend on the processing

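The 10 members kept their direction and call at 24 against 3 months as counted under DESeq2, voom, other scalings, no filter and the block. They also kept them on leaving out each mouse. Most tested genes were called in these fits too, 81.8% with the block and 12827 to 13248 genes leaving out 1 mouse. The kept calls are read against that background. The GC and length correction ended the call of Flt4 and turned Angpt1 to 0.25 at 24 against 3 months (0.26 with the block, 0.24 with the longest transcript of any kind, 0.21, 0.21, 0.23, 0.24, 0.25 and 0.27 leaving out 1 mouse). With GC correction alone Angpt1 had -0.0010 at 24 against 3 months and -0.014 at 24 against 12 months. For Angpt1 at 24 against 12 months the turned values were 0.14, 0.15, 0.13 and, leaving out 1 mouse, 0.043, 0.097, 0.13, 0.15, 0.17 and 0.19. Flt4 at 24 against 3 months was -0.0028 with GC correction alone, and -0.042, -0.038 and -0.0077 with the GC and length correction leaving out 3-month mouse 1, 24-month mouse 1 or 24-month mouse 2. With the longest transcript of any kind Nrp1 was 0.0499 at 24 against 3 months and 0.12 at 24 against 12 months. The cause was not tested.

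Members called at 12 against 3 months were 3 by DESeq2, 4 with GC correction alone, 5 without the 24-month libraries, 4 with only the 6 libraries compared and 0 to 1 leaving out 1 mouse. For any difference among ages, 4 were called without the 24-month libraries, 1 when these were also corrected, 6 with the longest transcript of any kind and 5 to 8 leaving out 1 mouse with the correction. At 24 against 12 months 5 to 8 were called leaving out 1 mouse with the correction. Over all genes, leaving out 1 mouse with the correction called 8124 to 9185 for any difference and 6039 to 6942 at 24 against 12 months. No all-gene count is given here for DESeq2 at 12 against 3 months. The same holds, for any difference, for the longest transcript of any kind and for the corrected fit without the 24-month libraries. The member counts of these fits thus have no background here and are not read as a result about the members. Counts over all genes at 12 against 3 months were 2433, and 3802 with GC correction alone, 5748 without the 24-month libraries (4687 corrected), 3962 with only the 6 libraries and 302 to 3426 leaving out 1 mouse. With the correction they were 2943, and 822 without 3-month mouse 2 and 1381 without 3-month mouse 3. At 24 against 12 months 12791 genes were called, and 6852 with the correction. For all genes called, any difference among the 4 ages, the counts were 13567 and, without the 24-month libraries, 4209.

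Adjusted p-values of the ratios, by exact permutation, changed as follows. Without the 24-month libraries they were 0.196 for Angpt1 to Tek and Vegfa to Kdr and 0.246 for Eng to Acvrl1 and Tek to Tie1. Eng to Acvrl1 had 0.0797 corrected, 0.112 with GC alone and 0.0162 to 0.182 leaving out 1 mouse. Flt1 to Kdr had 0.0485 with GC alone and 0.277 to 0.768 leaving out 1 mouse, its difference turning in 2 cases. Vegfa to Kdr turned, with 0.00812 corrected and 0.0358 with GC alone, and had 0.0141 to 0.139 leaving out 1 mouse.

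Same-numbered mice were not more alike than others. The 18 same-numbered pairs had a median correlation of deviations of -0.054, with 4 over 0.1. The 36 other pairs had a median of -0.0040, with 11 over 0.1. Deviations from the mean of an age sum to 0 over its 3 mice, so this check cannot exclude a pairing. With mouse number as a replicate block, 10 members were called at 24 against 3 months (8 corrected), 1 at 12 against 3 months, and 9 at 24 against 12 months (8 corrected), Vegfa having -0.56 (adjusted p = 0.052). Over all genes the block called 13130 at 24 against 3 months (8786 corrected), 1587 at 12 against 3 months and 12638 at 24 against 12 months (6596 corrected).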
